A study of Mus musculus with 51 samples.

Results

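The comparison described here set lungs of B-cell deficient mice that had inhaled products of methylene diphenyl diisocyanate (MDI) against lungs of B-cell deficient mice that had received a control solution. Its members were chosen by title: 7 arrays named MDI Exposed and 9 named Control for the strain B6.129S2-Ighmtm1Cgn/J, which makes 16 of the 51 arrays of the series. In this strain the gene of the immunoglobulin mu heavy chain is disrupted in the germline, so the loss is not limited to 1 tissue or time. All mice of both groups were males of 6 to 8 weeks without crofelemer, the drug given to other mice of the series. In both groups the shaved back had been exposed on 2 occasions to 1% MDI in acetone, so that the controls were sensitized as well. The airways were then exposed through the nose, under isoflurane, on day 15, day 16, day 19 and day 20. The MDI group received MDI that had been reacted together with glutathione (GSH), and the control group the solution in which MDI and GSH had been reacted separately. Lung was taken after perfusion and airway lavage, 48 h after the last exposure, and 250 ng of total RNA were labelled per array. The labels do not say that each array is a separate animal, so the p-values rest on a spread between samples that may in part be technical. The fit pooled that spread over 8 groups and 49 arrays of the series, so it is not that of these 16 arrays alone.

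MDI is a monomer of polyurethane production and a known cause of occupational asthma. In mice sensitized through the skin, inhaled allergens and haptens commonly evoke a type 2 response, in which interleukins 4, 5 and 13 act through STAT6 on epithelium and macrophages, goblet cells secrete mucus, and eotaxins draw eosinophils into the tissue. B cells contribute antibodies and present antigen, and mice without the membrane form of the mu chain fail to form mature B cells. The comparison asks which parts of the lung response to MDI are measurable in such mice.

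Values are the deposited log2 signals of 22206 probe sets, differences are MDI minus control on that scale, and errors of differences are standard errors (SE). A probe set was called where the adjusted p of limma, Benjamini-Hochberg corrected over all probe sets, was under 0.05. Controls 1, 2, 5 and 6 stood apart, with an interquartile range of 4.05 to 4.37 against 4.61 to 4.71 on the other controls and 4.70 to 4.85 on the MDI arrays, and control 7 carried high signals of squamous epithelium genes. The counts of called genes per list are therefore given over all arrays and again without controls 1, 2, 5, 6 and 7, which leaves 4 controls and is called the reduced comparison below. Over all arrays 8205 probe sets (36.9%) were called, of which 3604 (16.2%) rose and 4601 (20.7%) fell. Without controls 1, 2, 5 and 6 alone, 1765 (7.95%) rose and 2015 (9.07%) fell, 17% in all. In the reduced comparison 1611 (7.25%) rose and 1811 (8.16%) fell, 15.4% in all, and 1571 rises (7.07%) and 1580 falls (7.12%) were called in both (14.2%), with 0 calls in opposite directions. Over all arrays, at least 2-fold differences were called for 641 higher (2.89%) and 186 lower (0.838%) probe sets. The groups did not overlap for 1037 probe sets with MDI above control (4.67%) and 523 with MDI below (2.36%). All 9 controls and MDI arrays 5 to 7 lay in 1 block of consecutive records and MDI arrays 1 to 4 in another, and within the first block 2222 probe sets (10%) rose and 2311 (10.4%) fell, 20.4% in all. The median difference over all probe sets was -0.06, and with each array centred on its median it was -0.11. With that centring 35.9% of the calls were higher and 64.1% lower, against 43.9% and 56.1% as deposited, and with arrays also scaled to a common spread the split was 32.0% and 68.0%.

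**Figure D1:**
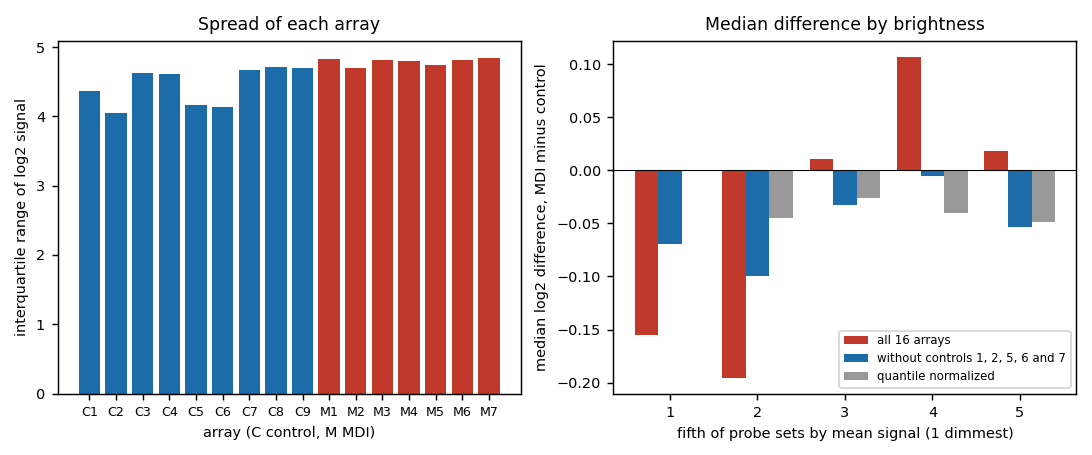
Left, the interquartile range of log2 signal on each array, with controls 1, 2, 5 and 6 at 4.05 to 4.37 and all others between 4.61 and 4.85. Right, the median log2 difference of MDI minus control in 5 equal groups of probe sets ordered by mean signal, where the dimmest group is at -0.16 over all 16 arrays and at -0.07 without controls 1, 2, 5, 6 and 7.

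Lower values in the dim range went with the narrow controls. In the dimmest of 5 equal groups of probe sets 158 rose and 1181 fell over all arrays, and 82 rose and 253 fell in the reduced comparison. The brightest group held 1040 rises and 769 falls over all arrays, and 513 and 599 in the reduced comparison. With arrays scaled to a common spread, the calls given below for Acta2, Col3a1, Fn1, Gpx1, Il33, Lcn2, Pax5, Sftpd, Tagln and Vwf were lost. Those for Dntt, Pax5, Reg3g and Sftpb were lost within the first record block. What made the spread narrow was not tested.

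The genotype was checked on B cell genes, because no probe set carried the symbol Ighm and the disrupted gene itself was not analysed here. Ms4a1, which encodes the B cell surface protein CD20, lay between 4.19 and 4.68 (median 4.48) on the controls and between 3.35 and 4.46 (median 4.23) on the MDI arrays, and in C57BL/6 mice its control mean was 6.98. For Cd79a, the signalling chain of the B cell receptor, the B-cell deficient control mean was 5.26 ± 0.26 (SD, n = 9) and the C57BL/6 control mean was 11.08. Jchain, which joins secreted IgA and IgM, had 3.07 ± 0.40 (SD, n = 9) against 9.24. These genes were thus at low signal in both groups of B-cell deficient mice, as the labelled genotype implies. The sets of the strains look separately normalized, with array means of 8.02 to 8.07 in B-cell deficient and 7.48 to 7.51 in C57BL/6 mice, so levels across them are descriptions only.

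The mean signal over 17 measured B cell identity genes was 6.06 to 6.19 on the controls and 6.17 to 6.61 on the MDI arrays, and 7.71 to 8.46 on C57BL/6 controls. Of these genes 5 rose and 2 fell over all arrays, beside 16.2% and 20.7% of all probe sets. In the reduced comparison 4 rose and none fell, beside 7.25% and 8.16%. The B cell identity gene with the largest rise was Bank1, a scaffold of B cell receptor signalling. It lay between 5.61 and 7.08 (median 6.20) on the controls and between 7.72 and 9.26 (median 8.34) on the MDI arrays, without overlap, a rise of 2.16 ± 0.30 (adjusted p = 2.52e-07). Cd72, an inhibitory co-receptor, rose by 0.95 ± 0.18 (adjusted p = 4.64e-05), Spib, a transcription factor of B cells and plasmacytoid dendritic cells, by 0.94 ± 0.17 (adjusted p = 2.82e-05), and Fcer2a, the low-affinity IgE receptor CD23, by 0.87 ± 0.16 (adjusted p = 2.54e-05). The groups of all 4 genes were separate, and the 4 passed in the reduced comparison too. Cd22, a sialic acid binding inhibitory receptor, rose by 0.70 over all arrays and had an adjusted p of 0.0791 in the reduced comparison.

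The defining B cell genes did not share these rises. Ms4a1 had a difference of -0.43 (adjusted p = 0.101), Cd79a -0.31 (0.285), Cd79b, the partner chain of Cd79a, 0.41 (0.103), and Cr2, the complement receptor of mature B cells, -0.11 (0.597). Pax5 and Ebf1, transcription factors of the B lineage, fell by 0.42 and 0.49 over all arrays, and neither passed in the reduced comparison (adjusted p = 0.523 and 0.128). For Blk, a B cell kinase, the difference was -0.34, for Fcmr, the IgM receptor, -0.37, for Tnfrsf13c, the receptor of BAFF, -0.31, for Cxcr5, the follicle homing receptor, 0.14, for Vpreb3, a protein of precursor B cells, 0.11, and for Fcrla, an intracellular Fc receptor-like protein, 0.12, and none of these 6 passed. Among 7 measured plasma cell genes 1 fell and none rose over all arrays, beside 20.7% and 16.2% of all probe sets. None passed in the reduced comparison. Jchain differed by -0.19 ± 0.38 (adjusted p = 0.727) and Mzb1, a chaperone of plasma cells, by -0.01 ± 0.13 (0.959).

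**Figure D2:**
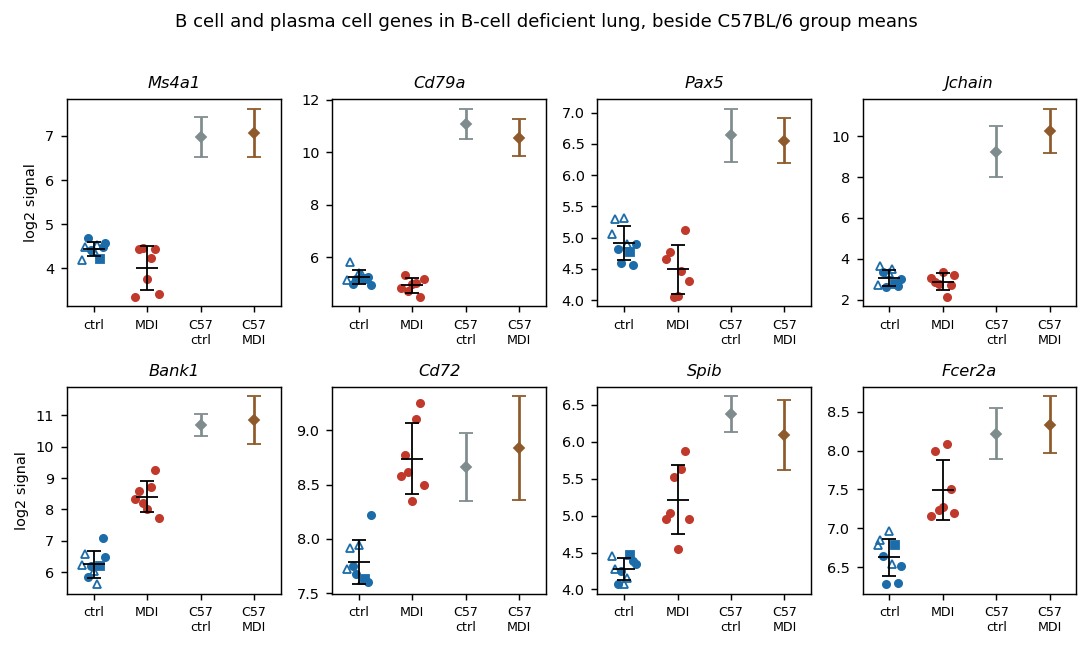
Log2 signal of 8 B cell and plasma cell genes on the 9 control and 7 MDI arrays of B-cell deficient mice (open triangles, controls 1, 2, 5 and 6; square, control 7; bars, mean and SD) beside the C57BL/6 group means with SD. Ms4a1, Cd79a and Jchain lie far under the C57BL/6 means, while Bank1, Cd72, Spib and Fcer2a are higher in every MDI array than in any control.

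Mucus and goblet cell genes had some of the largest differences. Clca1, a secreted protein of goblet cells, lay between 5.83 and 12.01 (median 10.48) on the controls and between 17.42 and 18.60 (median 18.03) on the MDI arrays. The controls were widely spread and the MDI arrays close together, without overlap, and the rise was 8.41 ± 0.67 (adjusted p = 8.09e-14). Slc26a4, the epithelial anion exchanger pendrin, went from 6.87 to 8.55 (median 7.93) to 13.07 to 15.23 (median 14.31), a rise of 6.19 ± 0.49 (adjusted p = 8.09e-14). Muc5ac, a gel-forming mucin, went from 6.37 to 7.42 (median 6.95) to 10.50 to 13.23 (median 12.63), a rise of 5.32 ± 0.40 (adjusted p = 1.19e-14). MDI array 7 was the lowest of its group for Muc5ac and still lay above every control. Fcgbp, a mucus-associated protein, rose by 4.36 ± 0.29 (adjusted p = 2e-16), and Muc5b, the other main airway mucin, by 2.48 ± 0.37 (adjusted p = 1.06e-06). Over the list of secreted mucus proteins and the goblet cell program, 15 of 20 measured genes rose and none fell, and 14 rose in the reduced comparison. Its median difference was 1.21 over all arrays and 1.64 in the reduced comparison.

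**Figure D3:**
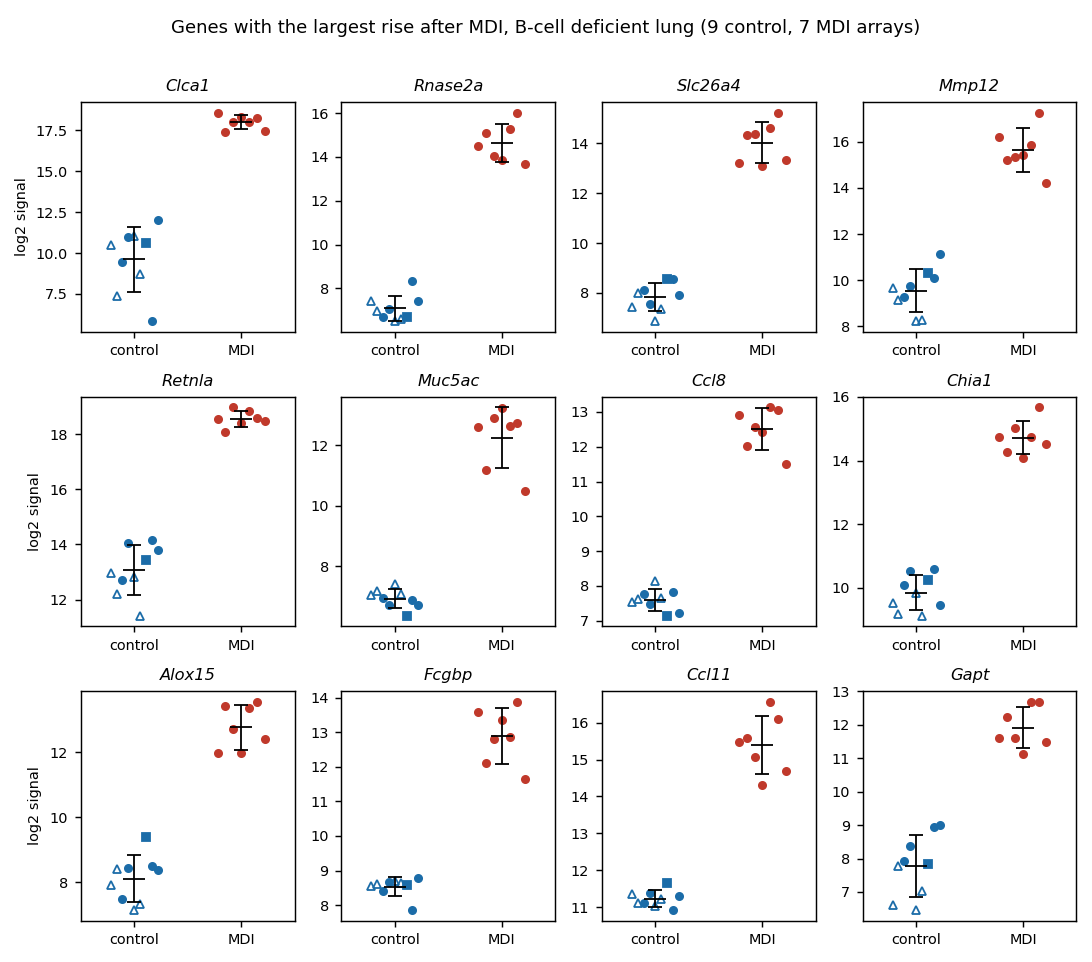
Log2 signal on each array for the 12 genes with the largest rise among those called in both comparisons (open triangles, controls 1, 2, 5 and 6; square, control 7; bars, mean and SD; each panel has its own scale). In every panel all 7 MDI arrays lie above all 9 controls.

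Eosinophil genes rose as a block. Rnase2a, an eosinophil-associated ribonuclease, lay between 6.51 and 8.34 (median 6.97) on the controls and between 13.66 and 16.03 (median 14.49) on the MDI arrays, a rise of 7.56 ± 0.43 (adjusted p = 9.34e-19). Ccr3, the eotaxin receptor, went from 7.93 to 10.43 (median 9.39) to 12.14 to 13.49 (median 13.03), a rise of 3.67 ± 0.36 (adjusted p = 3.83e-11). Il5ra, the receptor chain of the eosinophil growth factor interleukin 5, rose by 2.55 ± 0.23 (adjusted p = 3.31e-12), and Alox15, a lipoxygenase of eosinophils and alternatively activated macrophages, by 4.66 ± 0.33 (adjusted p = 1.56e-15). For these 4 genes the groups were separate. The granule protein genes moved less: Prg2, major basic protein, rose by 1.53 ± 0.27 (adjusted p = 1.51e-05), and Epx, eosinophil peroxidase, by 0.36 ± 0.11 (adjusted p = 0.00773). All 12 measured eosinophil genes rose over all arrays and 11 in the reduced comparison, with median differences of 1.70 and 1.60. In whole lung, more cells of a type and more RNA per cell cannot be told apart, here or for any other cell type named.

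Chemokines of the CC family rose in part. Ccl8, a monocyte and T helper 2 cell attractant, lay between 7.14 and 8.13 (median 7.61) on the controls and between 11.50 and 13.14 (median 12.57) on the MDI arrays, a rise of 4.92 ± 0.38 (adjusted p = 4.9e-14). Ccl11, an eotaxin, went from 10.91 to 11.66 (median 11.21) to 14.31 to 16.57 (median 15.47), a rise of 4.17 ± 0.38 (adjusted p = 3.31e-12). Ccl12, a monocyte attractant, rose by 1.96 ± 0.19, Ccl6 by 1.65 ± 0.18 and Ccl3, an attractant of leukocytes made by macrophages, by 1.22 ± 0.22 (adjusted p = 3.02e-11, 4.41e-10 and 2.69e-05). Ccl2, which attracts monocytes too, differed by 0.18 ± 0.22 (adjusted p = 0.561), and Ccl4 by -0.15 ± 0.15 (0.449). Of 19 CC chemokines 10 rose and 1 fell over all arrays, and 11 rose and 1 fell in the reduced comparison. Among 17 CXC and other chemokines 4 rose and 2 fell, and 4 rose and 1 fell in the reduced comparison. The shares over all probe sets were 16.2% and 20.7%, and 7.25% and 8.16% in the reduced comparison. Cxcl14, a chemokine of resting epithelium and stroma, fell by 1.51 ± 0.20 (adjusted p = 5.26e-08), from 11.07 to 12.00 on the controls to 9.38 to 10.58 on the MDI arrays. Cxcl9, an interferon-gamma induced chemokine, rose by 1.12 ± 0.27 (adjusted p = 0.000975), while the neutrophil attractants Cxcl1 and Cxcl2 differed by 0.22 ± 0.15 and 0.17 ± 0.19 (adjusted p = 0.234 and 0.495).

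Genes of alternatively activated macrophages were higher. Retnla, a secreted protein of such macrophages and of airway epithelium, lay between 11.41 and 14.16 (median 12.96) on the controls and between 18.09 and 18.99 (median 18.55) on the MDI arrays, a rise of 5.51 ± 0.40 (adjusted p = 3.56e-15). Chia1, acidic mammalian chitinase, rose by 4.88 ± 0.37 (adjusted p = 2.8e-14), and the chitinase-like Chil4 and Chil3 by 3.57 ± 0.32 and 2.15 ± 0.23 (adjusted p = 4.35e-12 and 3.32e-10). Arg1, arginase 1, lay between 5.52 and 6.61 (median 6.20) on the controls and between 7.95 and 11.13 (median 9.99) on the MDI arrays, a rise of 3.44 ± 0.46 (adjusted p = 7.81e-08). Pdcd1lg2, the PD-1 ligand PD-L2, rose by 3.43 ± 0.35 (adjusted p = 1.12e-10). The groups were separate for these 6 genes, though Arg1 had the widest spread of them among the MDI arrays (SD 1.19, n = 7). Of 20 measured genes of the list 16 rose and none fell, and 15 rose and 1 fell in the reduced comparison, with median differences of 1.37 and 1.34.

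The 250 bases before the start of Retnla are shown because among the genes with the largest rise whose promoter was searched, it alone held TTC and GAA with 4 bases of any kind between them, the spacing preferred by STAT6. RefSeq promoters on GRCm38.p6 were matched for 8 of the 12 genes (9 promoters), and the search covered both strands. The window is chr16:48842359-48842608 on the plus strand, and the capitals mark the match, 145 to 136 bases before the start.
Retnla promoter: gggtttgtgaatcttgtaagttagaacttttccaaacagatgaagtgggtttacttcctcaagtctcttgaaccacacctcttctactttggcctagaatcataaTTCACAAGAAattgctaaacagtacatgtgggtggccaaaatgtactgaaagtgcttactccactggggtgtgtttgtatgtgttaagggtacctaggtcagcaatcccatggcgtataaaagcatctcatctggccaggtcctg
Among all 32851 promoters of this length 5.85% held this motif and 7.02% held TTC and GAA with 3 bases between them, a spacing found in none of the 9 promoters. A match of letters is a description and does not show that a factor bound there in these lungs.

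Lipid-handling and tissue-repair macrophage genes rose too, less uniformly. Mmp12, macrophage elastase, lay between 8.23 and 11.13 (median 9.67) on the controls and between 14.20 and 17.26 (median 15.44) on the MDI arrays, a rise of 6.10 ± 0.53 (adjusted p = 8.87e-13). Ctsk, cathepsin K, rose by 3.06 ± 0.30 and Trem2, a lipid-sensing receptor, by 1.53 ± 0.25 (adjusted p = 4.3e-11 and 5.86e-06). Gpnmb rose by 0.88 ± 0.26 over all arrays (adjusted p = 0.00579) and had 0.50 in the reduced comparison (0.299). Of 15 such genes 11 rose, but 6 in the reduced comparison, with none falling in either. With arrays centred and scaled to a common spread 5 of them rose and 3 fell. Among 13 alveolar macrophage genes 7 rose and 1 fell, and 3 rose and 1 fell in the reduced comparison. Itgax, the integrin CD11c, rose by 2.21 ± 0.30 (adjusted p = 9.72e-08), whereas Marco, a scavenger receptor, differed by -0.14 ± 0.31 (0.754), and the rises of Pparg and Siglecf (1.00 and 0.99) did not pass in the reduced comparison (adjusted p = 0.0942 and 0.209).

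Interstitial macrophage and monocyte genes included the 3 chains of complement C1q. C1qb lay between 7.80 and 8.71 (median 8.42) on the controls and between 9.96 and 11.23 (median 10.92) on the MDI arrays, a rise of 2.40 ± 0.20 (adjusted p = 5e-13). C1qa rose by 2.29 ± 0.23 and C1qc by 2.46 ± 0.26 (adjusted p = 5.39e-11 and 2.02e-10), and Csf1r, the receptor of the macrophage growth factor, by 1.38 ± 0.17 (adjusted p = 8.87e-09). Of 17 genes of the list 10 rose and 2 fell in each of the comparisons. The complement list held 8 rises and 1 fall among 17 genes in each, with C3ar1, the C3a receptor, up by 3.60 ± 0.31 (adjusted p = 1.14e-12).

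Antigen presentation genes were higher as well. H2-Eb1, a beta chain of MHC class II, lay between 11.98 and 13.46 (median 12.72) on the controls and between 14.33 and 14.93 (median 14.53) on the MDI arrays, a rise of 1.95 ± 0.24 (adjusted p = 1.62e-08). H2-Aa rose by 1.43 ± 0.20, H2-Ab1 by 1.48 ± 0.20 and Ctss, the protease that trims the invariant chain, by 1.93 ± 0.22 (adjusted p = 3.21e-07, 1.63e-07 and 2.34e-09). In each comparison 9 of 11 class II genes rose and none fell. Of 18 dendritic cell genes 11 rose over all arrays and 7 in the reduced comparison, with none falling. Flt3, the growth factor receptor of dendritic cells, rose by 1.30 ± 0.20 and Cd209a by 1.39 ± 0.22 (adjusted p = 2.08e-06 and 3.03e-06), while Zbtb46, a transcription factor of conventional dendritic cells, differed by 0.01 ± 0.10 (0.959).

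T cell genes rose with separate groups for most of those named. Ctla4, an inhibitory receptor of activated and regulatory T cells, lay between 5.34 and 6.58 (median 5.84) on the controls and between 7.57 and 8.47 (median 7.81) on the MDI arrays, a rise of 2.01 ± 0.22 (adjusted p = 8.14e-10). Icos, a co-stimulatory receptor, rose by 1.80 ± 0.22, and Cd3g, a chain of the T cell receptor complex, by 1.89 ± 0.26 (adjusted p = 1.03e-08 and 1.28e-07). Cd3e overlapped between the groups and rose by 1.06 ± 0.28 over all arrays (adjusted p = 0.00242), with 0.72 in the reduced comparison (0.162). Of 16 T cell genes 14 rose over all arrays and 13 in the reduced comparison, and none fell. Of 6 measured genes of immature thymocytes 3 rose and 2 fell over all arrays, beside 16.2% and 20.7% of all probe sets. In the reduced comparison 3 rose and none fell, beside 7.25% and 8.16%. Dntt, Cd8b1 and Themis rose by 0.31, 0.98 and 1.30, and the falls of Rag2 and Ptcra, by 0.66 and 0.47, did not pass in the reduced comparison (adjusted p = 0.0521 and 0.696). Mean signal over that list was 6.56 to 6.95 on the controls and 6.78 to 7.02 on the MDI arrays.

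Among type 2 cytokines, Il4 stood out from Il5 and Il13. Il4 lay between 4.43 and 5.93 (median 4.74) on the controls and between 7.29 and 8.03 (median 7.59) on the MDI arrays, a rise of 2.67 ± 0.23 (adjusted p = 5e-13). Il13 lay between 5.20 and 6.17 on the controls and between 5.40 and 6.27 on the MDI arrays, a difference of 0.19 ± 0.14 (adjusted p = 0.309). Il5 lay between 6.62 and 7.47 and between 6.29 and 7.11, a difference of -0.20 ± 0.17 (adjusted p = 0.377). The Il4 groups were thus separate while those of Il5 and Il13 overlapped. Il33, an epithelial alarmin, rose by 1.29 ± 0.26, Il17rb, the receptor of interleukin 25, by 1.36 ± 0.21 and Ccr8, a chemokine receptor of T helper 2 cells, by 1.42 ± 0.28 (adjusted p = 9.79e-05, 1.25e-06 and 8.74e-05). Of 17 genes of the list 8 rose over all arrays and 7 in the reduced comparison, and none fell.

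Few mast cell and basophil genes were called. Mcpt2, a mucosal mast cell protease, rose by 0.66 ± 0.16 (adjusted p = 0.00123), from 4.80 to 5.32 on the controls to 5.33 to 6.26 on the MDI arrays. Mcpt4, a protease of connective tissue mast cells, differed by 0.19 ± 0.18 (adjusted p = 0.423). Prss34 of the same list fell by 0.66 over all arrays (adjusted p = 0.000431) and did not pass in the reduced comparison. Of 14 genes 2 rose and 2 fell over all arrays, beside 16.2% and 20.7% of all probe sets. In the reduced comparison 1 rose and none fell, beside 7.25% and 8.16%. Beside the same shares, natural killer and cytotoxic genes gave 4 rises and 1 fall among 13, and 2 rises in the reduced comparison. Those 2 were Eomes, a transcription factor of cytotoxic lymphocytes, up by 1.05 ± 0.13 (adjusted p = 2.33e-08), and Nkg7, a cytotoxic granule protein, up by 0.88 ± 0.17 (adjusted p = 6.69e-05). Ncr1, which marks natural killer cells, differed by 0.46 ± 0.28 (adjusted p = 0.193).

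Neutrophil genes gave mixed results. Retnlg, a resistin-like protein of neutrophils, lay between 11.35 and 14.34 (median 13.14) on the controls and between 16.23 and 17.18 (median 16.85) on the MDI arrays, a rise of 3.86 ± 0.40 (adjusted p = 2.39e-10). Lcn2, a siderophore-binding protein of neutrophils and epithelium, rose by 1.18 ± 0.21 and Padi4, an enzyme of neutrophil extracellular traps, by 1.20 ± 0.24 (adjusted p = 2.6e-05 and 8.45e-05). S100a8 and S100a9, the abundant calcium-binding proteins of neutrophils, differed by 0.19 ± 0.60 and -0.12 ± 0.57 (adjusted p = 0.832 and 0.884). Of 18 genes 4 rose and 1 fell, and 3 rose and none fell in the reduced comparison, with median differences of 0.33 and 0.02. Of all probe sets 16.2% rose and 20.7% fell, and 7.25% and 8.16% in the reduced comparison.

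Interferon-stimulated genes rose in part. Irf7, a master regulator of type I interferon genes, lay between 4.94 and 6.19 (median 5.84) on the controls and between 6.19 and 8.39 (median 7.49) on the MDI arrays, a rise of 1.75 ± 0.30 (adjusted p = 1.18e-05), the groups meeting at 6.19. Ifi27l2a rose by 1.54 ± 0.28, Mx1, an antiviral GTPase, by 1.09 ± 0.19 and Oas1a, an antiviral RNA sensor, by 0.70 ± 0.14 (adjusted p = 3.38e-05, 1.59e-05 and 8.59e-05). Isg15 and Ifit1 differed by 0.20 ± 0.14 and -0.10 ± 0.19 (adjusted p = 0.284 and 0.698). Of 24 genes 8 rose and 1 fell, and 5 rose and 1 fell in the reduced comparison. A core of the interferon response element, GAAA and GAAA with 2 bases of any kind between them, was in 45.5% of the 22 promoters matched for 19 of these genes and in 2.98% of all promoters, both strands searched. The list was made of interferon-stimulated genes, so this share describes the list and not the effect of MDI. The motif was found for Oas1a, which rose, and for Isg15 and Ifit1, which were not called.

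Lipid mediator genes rose with MDI. Pla2g4c, a cytosolic phospholipase A2, lay between 4.74 and 6.11 (median 5.52) on the controls and between 8.26 and 9.84 (median 9.27) on the MDI arrays, a rise of 3.77 ± 0.27 (adjusted p = 4.54e-15). Tbxas1, thromboxane synthase, rose by 2.54 ± 0.26, Alox5, the first enzyme of leukotriene synthesis, by 2.20 ± 0.24, and Alox5ap, its activating protein, by 1.11 ± 0.15 (adjusted p = 1.96e-10, 9.28e-10 and 8.55e-08). Pla2g7, which breaks down platelet-activating factor, rose by 2.93 ± 0.31 (adjusted p = 2.07e-10). Of 19 eicosanoid genes 13 rose and 1 fell over all arrays, and 9 rose and none fell in the reduced comparison. In arginine and polyamine metabolism, 6 of 13 genes rose over all arrays and 3 in the reduced comparison, among them Slc7a2, a cationic amino acid transporter, by 1.74 ± 0.19 (adjusted p = 1.29e-09).

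Cell cycle genes were higher, with a weaker margin once the doubted controls were left out. Mki67, the proliferation marker Ki-67, lay between 9.55 and 11.75 (median 10.34) on the controls and between 11.62 and 13.11 (median 12.71) on the MDI arrays, a rise of 2.01 ± 0.31 (adjusted p = 2.17e-06) that was 1.37 in the reduced comparison (0.00907). Top2a, a topoisomerase of dividing cells, rose by 0.91 ± 0.27 (adjusted p = 0.00627) and had 0.86 in the reduced comparison (0.077). Of 21 genes 19 rose over all arrays and 10 in the reduced comparison, with none falling and median differences of 1.24 and 0.86.

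**Figure D4:**
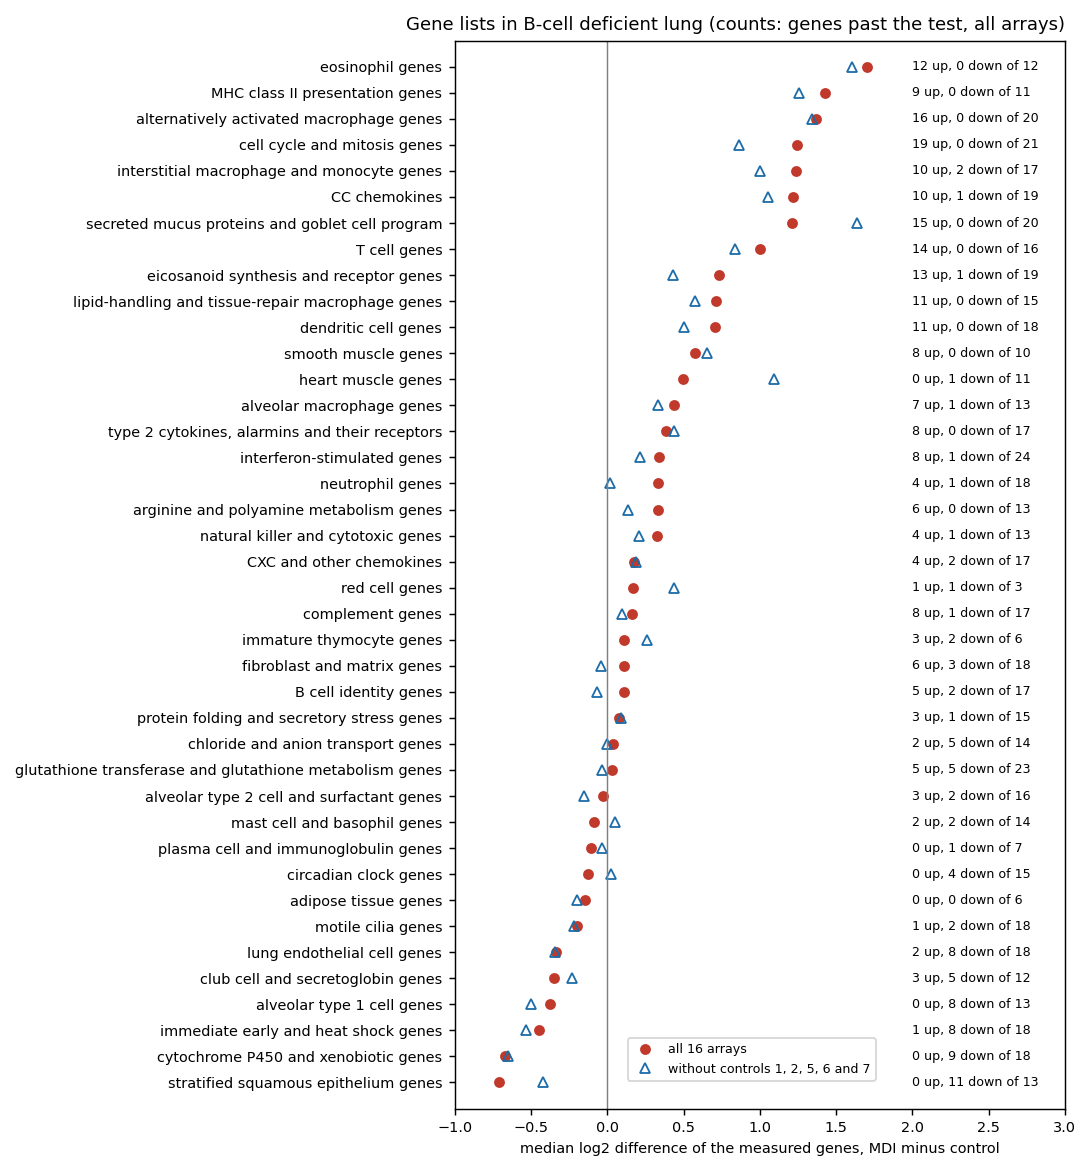
Median log2 difference, MDI minus control, of the measured genes of each of the 40 lists, over all 16 arrays (filled circles) and without controls 1, 2, 5, 6 and 7 (open triangles), with the number of genes called over all arrays at the right. Over all arrays eosinophil genes are highest at 1.70 and stratified squamous epithelium genes lowest at -0.71, without the 5 controls mucus genes are highest at 1.64 and xenobiotic genes lowest at -0.65, and the median over all probe sets is -0.06.

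Smooth muscle and matrix genes differed as well. Actg2, a smooth muscle actin, lay between 10.91 and 12.37 (median 11.71) on the controls and between 12.48 and 13.80 (median 12.98) on the MDI arrays, a rise of 1.37 ± 0.24 (adjusted p = 2.23e-05). Tagln rose by 1.01 ± 0.17, Myh11, the smooth muscle myosin heavy chain, by 0.90 ± 0.16 and Acta2 by 0.71 ± 0.13 (adjusted p = 5.89e-06, 1.34e-05 and 5e-05). Of 10 smooth muscle genes 8 rose and none fell, and 7 rose in the reduced comparison, but with arrays centred and scaled to a common spread 3 rose and 1 fell and Acta2 had -0.12. Of 18 fibroblast and matrix genes 6 rose and 3 fell, and 5 rose and 2 fell in the reduced comparison, while with that scaling 3 rose and 9 fell. Col3a1 and Fn1, a collagen and fibronectin, rose by 1.13 ± 0.22 and 1.06 ± 0.20 (adjusted p = 7.12e-05 and 4.63e-05), and Npnt, nephronectin of the alveolar basement membrane, fell by 0.89 ± 0.17 (adjusted p = 5.11e-05).

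Genes of the alveolar and airway epithelium and of vessels fell in part. Lmo7, from the alveolar type 1 list, lay between 18.44 and 18.90 (median 18.64) on the controls and between 17.51 and 18.23 (median 17.95) on the MDI arrays, a fall of 0.75 ± 0.12 (adjusted p = 3.2e-06), and Cldn18, a tight junction protein, fell by 0.52 ± 0.11 (adjusted p = 0.000146). The receptor Ager differed by -0.27 ± 0.11 (adjusted p = 0.0584). Of 13 alveolar type 1 genes 8 fell in each comparison and none rose. With arrays centred and scaled to a common spread all 13 fell. Among alveolar type 2 genes, Sftpd, a collectin of surfactant, rose by 0.79 ± 0.14 (adjusted p = 1.22e-05), Sftpb fell by 0.45 ± 0.10 (0.000595), and Sftpc differed by 0.02 ± 0.05 (0.832). Of 16 type 2 genes 3 rose and 2 fell over all arrays, shares near or under the 16.2% and 20.7% of all probe sets. In the reduced comparison 2 rose and 2 fell, beside 7.25% and 8.16% of all probe sets. With arrays centred and scaled to a common spread none rose and 12 fell.

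Among club cell genes, Cyp2f2, a monooxygenase of club cells, lay between 18.58 and 19.29 (median 18.96) on the controls and between 17.41 and 17.93 (median 17.59) on the MDI arrays, a fall of 1.30 ± 0.16 (adjusted p = 2.65e-08). Scgb3a2, a secretoglobin, fell by 1.07 ± 0.20 (adjusted p = 3.36e-05), and Scgb1a1, the main club cell secretoglobin, differed by -0.02 ± 0.06 (0.812) near the top of the scale. Reg3g, an antibacterial lectin, rose by 2.53 ± 0.65 (adjusted p = 0.00188). Of 12 club cell genes 3 rose and 5 fell over all arrays, beside 16.2% and 20.7% of all probe sets. In the reduced comparison 3 rose and 3 fell, beside 7.25% and 8.16%. With arrays centred and scaled to a common spread 2 rose and 8 fell. Motile cilia genes gave 1 rise and 2 falls among 18 over all arrays, under the 16.2% and 20.7% of all probe sets that rose and fell. In the reduced comparison they gave 2 falls, where 8.16% of all probe sets fell. Of 18 endothelial genes 2 rose and 8 fell, and 1 rose and 6 fell in the reduced comparison. With arrays centred and scaled to a common spread none rose and 14 fell. Kdr, the VEGF receptor, fell by 0.68 ± 0.15 (adjusted p = 0.000281) and Vwf, von Willebrand factor, rose by 0.79 ± 0.16 (9.66e-05).

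Xenobiotic metabolism genes were lower. Pon1, paraoxonase 1, lay between 12.20 and 12.94 (median 12.63) on the controls and between 9.95 and 11.76 (median 10.44) on the MDI arrays, a fall of 1.97 ± 0.37 (adjusted p = 5e-05). Sult1d1, a sulfotransferase, went from 9.37 to 11.30 (median 10.85) to 7.46 to 9.66 (median 8.50), a fall of 2.14 ± 0.32 (adjusted p = 7.29e-07) with overlapping groups. Cyp2a4 fell by 1.73 ± 0.29 and Cyp2s1 by 1.21 ± 0.23 (adjusted p = 7.52e-06 and 5.02e-05), and Cyp2a5 fell by 2.01 ± 0.46 over all arrays (0.000539) with an adjusted p of 0.061 in the reduced comparison. Of 18 such genes 9 fell over all arrays and 7 in the reduced comparison, and none rose. In glutathione metabolism 5 of 23 genes rose and 5 fell over all arrays, close to the 16.2% and 20.7% of all probe sets. In the reduced comparison 3 rose and 6 fell, above the 7.25% and 8.16% of all probe sets. With arrays centred and scaled to a common spread 3 rose and 11 fell. Gsr, glutathione reductase, rose by 1.41 ± 0.17 and Gpx1, a peroxidase, by 0.77 ± 0.11, whereas the transferases Gsta3 and Gstm1 fell by 1.33 ± 0.21 and 0.83 ± 0.17 (adjusted p = 5.69e-09, 3.45e-07, 2.17e-06 and 0.00012).

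Among the other genes with the largest falls, Vipr2, a receptor of vasoactive intestinal peptide, lay between 10.38 and 11.64 (median 11.08) on the controls and between 8.84 and 9.31 (median 9.20) on the MDI arrays, a fall of 1.88 ± 0.19 (adjusted p = 7.13e-11) with -2.34 in the reduced comparison. Nr4a2, an immediate early nuclear receptor, went from 10.38 to 11.60 (median 11.34) to 9.43 to 9.92 (median 9.53), a fall of 1.60 ± 0.18 (adjusted p = 1.7e-09). Pde7b, a cyclic AMP phosphodiesterase, fell by 1.71 ± 0.23, Scube2, a secreted protein that releases hedgehog ligands, by 1.67 ± 0.27 and Slc38a4, an amino acid transporter, by 1.75 ± 0.28 (adjusted p = 9.89e-08, 3.84e-06 and 3.66e-06). The groups of these 5 genes were separate. Of 18 immediate early and heat shock genes 8 fell and 1 rose, and 6 fell and 1 rose in the reduced comparison, among them Dusp1, a MAP kinase phosphatase, down by 1.32 ± 0.27 (adjusted p = 0.00016), while Fos differed by -0.22 ± 0.27 (0.553).

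**Figure D5:**
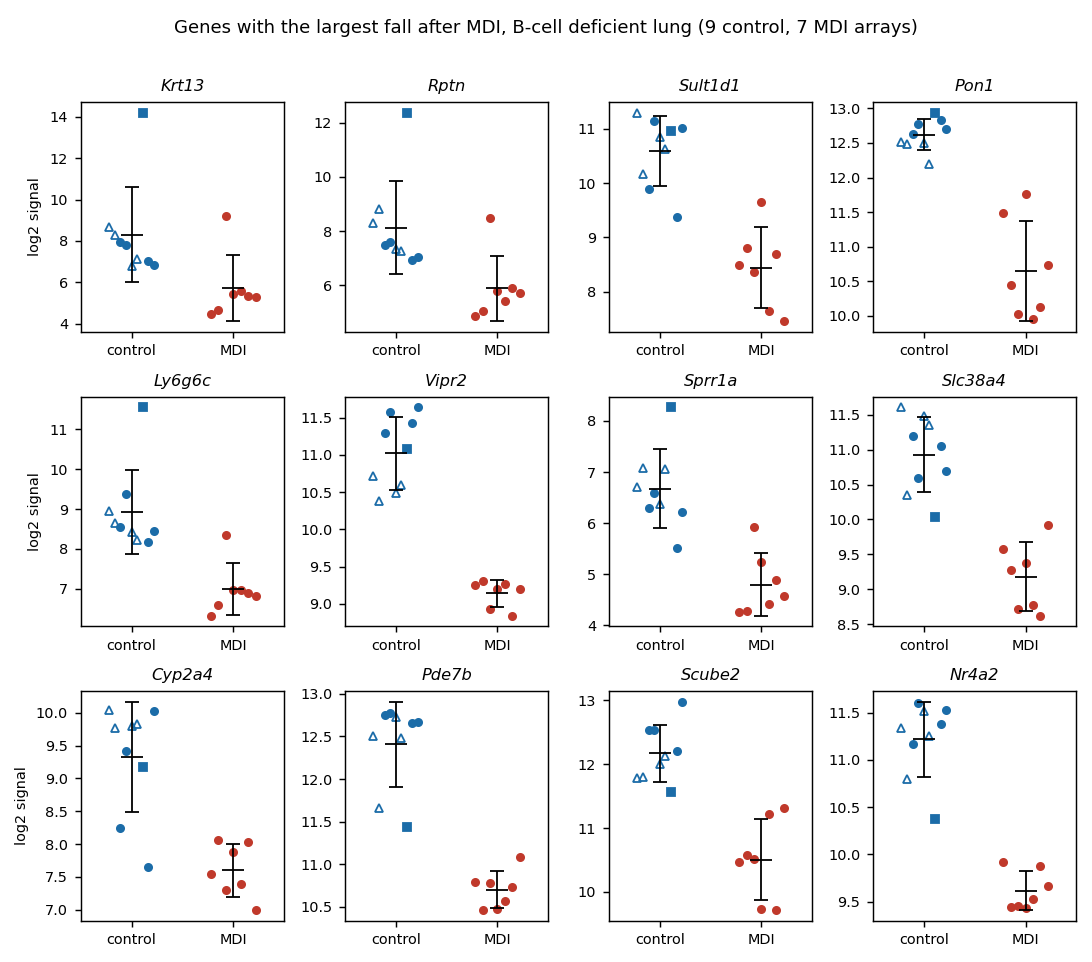
Log2 signal on each array for the 12 genes with the largest fall among those called in both comparisons (open triangles, controls 1, 2, 5 and 6; square, control 7; bars, mean and SD; each panel has its own scale). Pon1, Vipr2, Slc38a4, Pde7b, Scube2 and Nr4a2 have separate groups, and control 7 and MDI array 3 are the highest of their groups for Krt13, Rptn and Ly6g6c.

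Squamous epithelium genes were lower over all arrays, with 1 array far above the rest in each group. Krt13, a keratin of stratified mucosa, lay between 6.79 and 14.21 (median 7.81) on the controls and between 4.48 and 9.23 (median 5.34) on the MDI arrays. Control 7 had the 14.21 and MDI array 3 the 9.23, the groups overlapped, and the fall was 2.58 ± 0.64 (adjusted p = 0.00137). The difference was -1.84 without control 7 and -3.17 without MDI array 3, both still called, and -1.69 in the reduced comparison (adjusted p = 0.0382). Rptn, an epidermal matrix protein, had 12.38 on control 7 and 8.49 on MDI array 3 and fell by 2.25 ± 0.50 (adjusted p = 0.000444). Of 13 squamous genes 11 fell over all arrays, 10 without control 7, 7 without controls 1, 2, 5 and 6, and 2 in the reduced comparison. None of the 13 remained when probe sets dim by their mean over the fitted arrays were left out. In the dim range lower values went with the narrow controls, as given above. Mean signal over the list was 5.72 to 8.87 on the controls and 4.77 to 6.64 on the MDI arrays. Without control 7 alone, 3764 probe sets rose and 4794 fell.

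Markers of other tissues were measured in the same way. Over 11 heart muscle genes the mean signal was 8.67 to 11.33 on the controls and 9.87 to 12.04 on the MDI arrays, and 1 fell over all arrays and 1 rose in the reduced comparison, where the median difference was 1.10 against 0.50 over all arrays. Of 3 red cell genes 1 rose and 1 fell in each comparison, and of 6 adipose tissue genes none passed in either comparison. Myh6, the atrial myosin heavy chain, differed by 0.83 ± 0.47 (adjusted p = 0.165) and Adipoq, adiponectin, by -0.27 ± 0.71 (0.792).

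Protein folding, chloride transport and clock genes had list medians near that of all probe sets. Of 15 protein folding genes 3 rose and 1 fell, beside 16.2% and 20.7% of all probe sets, and 2 rose in the reduced comparison, beside 7.25%. With arrays centred and scaled to a common spread 2 rose and 7 fell, with a median difference of -0.47. Edem1, a factor of glycoprotein degradation, was up by 0.83 ± 0.12 (adjusted p = 2.63e-07). Among 14 chloride and anion transport genes 2 rose and 5 fell over all arrays, beside the same 16.2% and 20.7%. In the reduced comparison 2 rose and 3 fell, beside 7.25% and 8.16%. The 2 that rose were Clca1 and Slc26a4, given above, and Cftr and Ano1, the main apical chloride channels, differed by 0.42 ± 0.18 and 0.10 ± 0.12 (adjusted p = 0.0598 and 0.54). Of 15 clock genes 4 fell over all arrays and 2 in the reduced comparison, beside 20.7% and 8.16% of all probe sets. No clock gene was called in both.

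The effect of MDI was then compared with that in C57BL/6 mice without crofelemer (6 control and 13 MDI arrays) by testing the difference of the effects in the same fit. Over all arrays 4502 probe sets (20.3%) passed, 2059 (9.27%) higher and 2443 (11%) lower in B-cell deficient mice. Without controls 1, 2, 5, 6 and 7 it was 603 (2.72%), 289 higher (1.3%) and 314 lower (1.41%), of which 597 were called over all arrays with the same sign. Centring each array moved the median difference of effects from -0.015 to -0.11 and the split to 28.5% higher and 71.5% lower, and the common spread moved it to 23.8% and 76.2%.

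For most of the genes with the largest rise the difference of effects did not pass. Clca1 had 0.28 ± 0.94 (adjusted p = 0.862), Muc5ac -0.09 ± 0.56 (0.926), Retnla -0.12 ± 0.55 (0.899) and Ccl11 0.15 ± 0.53 (0.867). These standard errors leave room for differences of about 1 unit or more, so alike responses are not shown. Rnase2a rose further in B-cell deficient mice, by 7.56 against 5.33, a difference of 2.22 ± 0.60 (adjusted p = 0.00761) that did not pass in the reduced comparison (0.116).

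Among the genes with the largest differences of effects, Irf7 went in opposite directions. In C57BL/6 mice it went from 8.02 ± 0.97 (SD, n = 6) to 6.36 ± 0.59 (n = 13), and in B-cell deficient mice from 5.61 ± 0.48 (n = 9) to 7.36 ± 0.88 (n = 7). The difference of effects was 3.40 ± 0.42 (adjusted p = 2.64e-06) and 3.18 in the reduced comparison (0.000693). Mmp9, gelatinase B of neutrophils and macrophages, had 3.42 ± 0.60 (adjusted p = 0.000198), from a C57BL/6 effect of -1.62 and a B-cell deficient effect of 1.81, which by itself had an adjusted p of 0.098 in the reduced comparison. Slc2a3, a glucose transporter, had 2.28 ± 0.38 and Tarm1, a receptor of myeloid cells, 2.68 ± 0.57 (adjusted p = 0.000127 and 0.00126), and these 3 passed in the reduced comparison as well. For Mmp9, Tarm1 and Slc2a3 the control means were 5.75, 5.47 and 5.93 in B-cell deficient against 8.9, 8.17 and 7.43 in C57BL/6 mice. The MDI means were 7.55, 8.80 and 7.65 against 7.29, 8.82 and 6.87, levels across strains being descriptions only. Retnlg (2.59 ± 0.57) and Il1b, interleukin 1 beta (2.27 ± 0.52), passed over all arrays alone. The Il1b effect in B-cell deficient mice was itself not called (0.82, adjusted p = 0.0773, and 0.13 in the reduced comparison, 0.883). Vipr2 fell more in B-cell deficient mice, with a difference of -1.20 ± 0.26 (adjusted p = 0.00157) and -1.66 in the reduced comparison (0.00101). Ccdc7a had -1.98 ± 0.32, Sprr1a, a cornified envelope protein, -2.11 ± 0.40 and Krt4, a mucosal keratin, -2.80 ± 1.00 (adjusted p = 9.01e-05, 0.000434 and 0.0405), and Krt4 did not pass in the reduced comparison (0.243).

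Of the lists, interferon-stimulated genes had 14 of 24 genes with a more positive effect in B-cell deficient mice over all arrays and 6 in the reduced comparison, and none with a more negative one. Their median effect was 0.34 in B-cell deficient and -0.40 in C57BL/6 mice. In neutrophil genes 6 of 18 were higher and 2 in the reduced comparison, with median effects of 0.33 and -0.51. Interstitial macrophage and monocyte genes had 9 of 17 higher, natural killer and cytotoxic genes 7 of 13 and class II genes 5 of 11. In the reduced comparison these were 1, 2 and none. A lower effect was called for 1 natural killer and cytotoxic gene over all arrays. Of all probe sets 9.27% were higher and 11% lower, and 1.3% and 1.41% in the reduced comparison. Of 17 B cell genes 5 were higher and 3 in the reduced comparison, where Bank1 had an adjusted p of 0.033, Spib 0.015 and Fcer2a 0.033. Il4 had a difference of effects of 1.46 (adjusted p = 0.0014, and 0.048 in the reduced comparison).

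The 7 MDI arrays were finally split by their block of records, arrays 1 to 4 against 5 to 7. In limma 0 probe sets passed, with 182 (0.82%) at an unadjusted p under 0.05, a median SE of 0.21 and a largest absolute difference of 1.68. That percentage lies under the share of 0.05 that such a threshold would give if nothing differed and the pooled spread fitted these arrays. On simulated data of this split, with independent noise of the same spread on all arrays, 2-fold changes were recovered at 86% and 4-fold changes at 100%. The simulated spread was the one pooled over all groups. These rates therefore do not describe the 7 MDI arrays, and 0 calls do not show that the blocks are alike.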

How the data were processed

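The authors deposited log2 signals for 22206 probe sets on 51 arrays with biotin-labelled cRNA, written by Transcriptome Analysis Console per the submitters' processing notes. Its version is not given in the sources used here, nor is the normalization, and base 2 is an inference from the values. The largest, 20.91, lies above 16, where a 16-bit scanner reading would end, so a fold change applies to the deposited values only. No value was rescaled. Arrays give no counts, and their number limits the precision. No pair of arrays within a group shared over 1.60% of values exactly.

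Of the probe sets 19572 carry 1 gene symbol and 2634 none, per the platform annotation. For the 55 symbols with several probe sets, the one with the highest mean was used. limma 3.58.1 in R 4.3.3 fitted 8 group means to 49 arrays (41 residual degrees of freedom) with an intensity trend and 2-sided tests, and 2 arrays with contradictory labels were left out. P-values were adjusted by Benjamini-Hochberg over all probe sets. The 40 gene lists, the comparisons and the members were chosen with earlier results of these data known. Named genes were up to 12 of the largest rises and 12 of the largest falls called in both comparisons, from each list its first 3 measured genes and up to 4 ranked by adjusted p, all B cell genes, and 6 genes per direction for the difference of effects. Not all genes so chosen are printed. The Entrez identifiers of all 19572 named probe sets matched RefSeq. In simulated data where 200 of the probe sets had been changed, 2-fold changes were recovered at 95% for MDI against control and 81% for the difference of effects, and 4-fold changes at 100%, with 11 and 7 false calls. The simulated noise was independent and, for each probe set, of the same spread on all arrays. It held no narrow controls, no array like control 7 and no record blocks, so these rates do not describe errors in the deposited data. Figures used matplotlib 3.10.9. The alternatives are in the closing section. Replicate numbers do not pair the arrays.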

Additional observations from a re-analysis of the deposited data

Results flagged for a closer look

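Within the groups, 64 gene and group combinations were checked for an array far from the others, and 10 met the limit. By chance about 1 in 20 would meet it if the checks were independent. They were not, since the same genes recur on control 7 and MDI array 3, so no excess over chance is shown. Control 7 had also been doubted beforehand. Control 7 was far above the other controls for Krt13 (14.21), Rptn (12.38), Ly6g6c (11.56) and Krt4 (14.21). MDI array 3 was far above the other MDI arrays for the same 4 genes, at 9.23, 8.49, 8.36 and 8.77. Control 8 was highest for Rnase2a (8.34) and lowest for Fcgbp (7.85).

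The effect of MDI differed between B-cell deficient and C57BL/6 mice for the following 14 genes, by the test of the difference of effects over all arrays, which 20.3% of all probe sets passed. All but Rnase2a and Vipr2 were named because they passed this test with the largest differences, so their number is no result. The effect was higher in B-cell deficient mice for Mmp9 (3.42), Irf7 (3.40), Tarm1 (2.68), Retnlg (2.59), Slc2a3 (2.28), Il1b (2.27) and Rnase2a (2.22). It was lower for Krt4 (-2.80), Krt13 (-2.53), Rptn (-2.20), Sprr1a (-2.11), Ccdc7a (-1.98), Ly6g6c (-1.79) and Vipr2 (-1.20). Without controls 1, 2, 5, 6 and 7, Mmp9, Irf7, Tarm1, Slc2a3, Sprr1a, Ccdc7a and Vipr2 still passed.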

How the results depend on the processing

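The 8205 calls of MDI against control became 3780 without controls 1, 2, 5 and 6, 3422 without control 7 as well, 4533 within the record block of MDI arrays 5 to 7, 4499 with the record block as a term, and 4289 of 11103 probe sets when dim ones were left out, the last with fewer probe sets tested. The 4502 calls of the difference of effects became 719, 603, 2471, 2444 and 1878 under the same settings. Other scalings, array weights, no trend and a fit of the compared groups alone kept both counts within 1.5 times, at 7538 to 9217 and 3035 to 6264. Leaving out each array in turn gave 7074 to 8558 and 3524 to 5160. With the replicate number as a replicate block the counts were 8988 and 4580. The numbers do not pair the arrays: over 7 pairs the correlation of deviations ran from -0.117 to 0.183, and 1 array matched its own number best. The split of the MDI arrays gave 0 calls under every alternative run.

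Of 177 called named genes, 118 were called under every setting and 165 with any 1 array left out, and of 12 for the difference of effects 6 and 10 were. With arrays centred and scaled to a common spread, which stretches the narrow controls about their median, 6 differences turned sign: Acta2 -0.12, Ano1 -0.58, Gclc -0.11, Pdia6 -0.52, Sat1 -0.17 and Sftpc -1.08. The cause of the narrow spread was not tested.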
